A study of Mus musculus with 2 samples.

Results

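The 300 spots described here were those in which Gpnmb and Ccl7 together took the highest share of the RNA, on 2 sections of fracture callus read by spatial transcriptomics. In this assay DNA probe pairs report the RNA of a fixed section to barcoded spots set 100 µm apart, each wide enough to cover several cells, often of more than 1 type. Each captured molecule is counted once as a unique molecular identifier (UMI). Of 6380 spots over tissue, 5920 had at least 1000 UMIs. The 296 of these with the most Acp5, Ctsk and Mmp9, genes of the bone-resorbing osteoclast, were set aside. The 300 of the remaining 5624 spots with the highest summed level of Gpnmb and Ccl7, in UMIs per 1000000 UMIs of the spot (CPM), were taken, and are called Gpnmb/Ccl7 spots below. The other 5324 are called other spots. Since the values of Gpnmb and Ccl7 chose the spots, their levels are a description of that choice.

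Both sections were treated as cut from 1 paraffin block that held the callus of 1 control mouse and 1 mutant mouse side by side. The mice were 8 weeks old, the lower tibia had been fractured and held with a pin in the marrow cavity, and 10 days later the callus was taken into formalin, then decalcified over 3 days in 14% EDTA. The control carried Nf1[+/flox] and no Cre, so it kept an unrecombined floxed allele beside a wild-type one. The mutant, called Nf1 Postn, was Postn-cre;Nf1[flox/-], with 1 Nf1 allele deleted throughout the body and the floxed allele open to deletion in cells that have used the Postn promoter, which is active in periosteal and other fibrous cells. Nf1 encodes neurofibromin, which turns Ras off. The labels name the sections as biological replicates 1 and 2. From the methods' account of paired calluses in a block, they were treated here as sections of the same control and mutant mouse. With 1 mouse of each genotype on that reading, no difference was tested, and intervals cover counting error at the 95% level and nothing else. Section 1 held 13562254 UMIs over the control callus and 3462225 over the Nf1 Postn callus, and section 2 held 12122419 and 5984157.

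Macrophages enter a fracture early, clear blood clot and dead tissue, and signal to the cells that build cartilage and bone. Gpnmb encodes a membrane glycoprotein of macrophages that are loaded with lysosomes and lipid, and is also made by osteoclasts and pigment cells. Ccl7 encodes a chemokine that draws monocytes, the blood precursors of macrophages, through the receptor Ccr2. Other genes used below to recognise such cells are Cd68, a lysosomal membrane protein of macrophages, Ctss, a lysosomal protease of antigen-presenting cells, Trem2, a lipid-sensing receptor, and Spp1, the secreted phosphoprotein osteopontin.

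Few molecules decided membership. In the Gpnmb/Ccl7 spots the summed CPM of both genes ran from 350.1 to 2876, with a median of 489, and this rested on 1 to 31 UMIs with a median of 2. The last 3 spots inside the limit had 351, 350.1 and 350.1 CPM from 3, 1 and 1 UMIs, and the first 3 outside had 349.6, 349.3 and 348.8 CPM from 2, 1 and 1 UMIs. A single UMI took 111 spots over the limit, 58 spots had 2 UMIs and 131 had 3 or more. A UMI of both genes was found in 110 spots, of Gpnmb alone in 120 and of Ccl7 alone in 70. A spot with 1 UMI could pass only if it was shallow, and the median depth was 2312 UMIs in spots with 1 UMI of the 2 genes and 8164 UMIs in spots with 3 or more. Members as a whole had a median of 4454 UMIs, against 4423 in other spots.

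The spots were unevenly spread over sections and calluses. The control callus held 41 of 1500 eligible spots in section 1, or 2.73% (exact binomial interval 1.97 to 3.69), and 153 of 1580 in section 2, or 9.68% (8.27 to 11.2). The Nf1 Postn callus held 43 of 1103, or 3.90% (2.84 to 5.22), and 63 of 1440, or 4.38% (3.38 to 5.56). The control values of the 2 sections lay on either side of both Nf1 Postn values, so the order of the calluses turned with the section. It did not turn among spots with 3 or more UMIs, of which the control held 19 and 98 and the Nf1 Postn callus 5 and 9. Among spots with 1 UMI the control held 42 and the Nf1 Postn callus 69. Median depth was 4189 and 6764 UMIs in the control spots of sections 1 and 2 and 2312 and 2574 UMIs in the Nf1 Postn spots. In other spots it was 6808.5 and 5892 UMIs in the control and 2265 and 3431 UMIs in the Nf1 Postn callus. A deeper spot reaches 3 UMIs more readily. The order of the calluses among spots with 3 or more UMIs cannot be told apart from this difference in depth. In each callus, fewer cells of a type and less RNA per cell cannot be told apart.

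**Figure D1:**
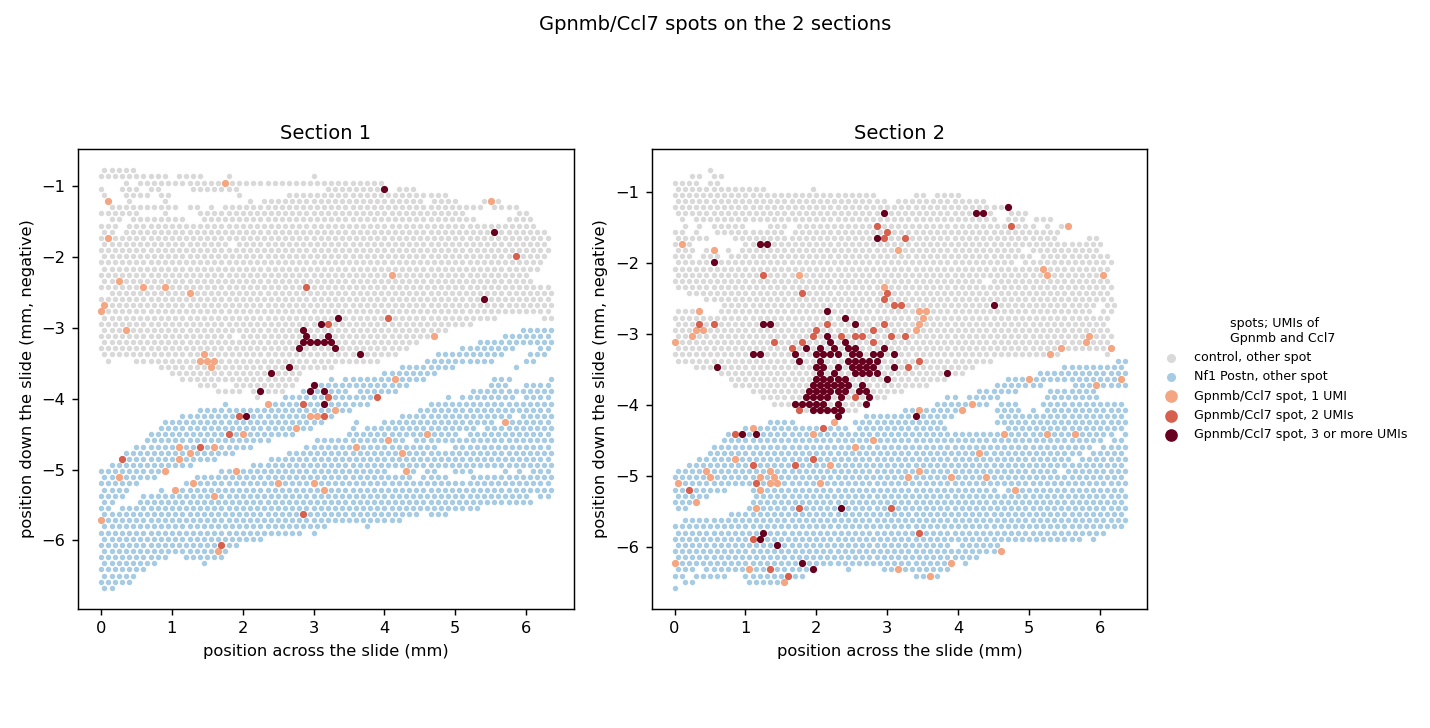
Position in mm of every eligible spot on the 2 sections, with the Gpnmb/Ccl7 spots coloured by the number of UMIs of Gpnmb and Ccl7 in them. The dense patch of 49 spots lies in the control callus of section 2, while the Nf1 Postn callus holds scattered spots, most of them with 1 UMI.

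Gpnmb was read at 260 CPM (interval 198 to 335) and 397 CPM (360.0 to 437) in the control Gpnmb/Ccl7 spots of sections 1 and 2, and at 391 (285 to 523) and 415 CPM (331 to 513) in those of the Nf1 Postn callus. In other spots it was at 19.0, 30.5, 13.9 and 16.6 CPM in the same order. Ccl7 was at 256, 262, 208 and 178 CPM in the chosen spots and at 20.9, 23.6, 8.86 and 10.2 CPM in other spots. Over all eligible spots of a callus, Gpnmb stood at 23.6 and 65.4 CPM in the control and 27.2 and 30.3 CPM in the Nf1 Postn callus, so that section 2 of the control was the highest of the 4. Nf1 itself was at 65.0 and 61.9 CPM in control Gpnmb/Ccl7 spots and at 104 (interval 53.8 to 182, 12 UMIs) and 93.8 CPM (56.5 to 146, 19 UMIs) in Nf1 Postn ones. In other spots Nf1 was at 87.1 and 79.9 CPM in the control and 66.5 and 48.3 CPM in the Nf1 Postn callus, so the order of the calluses was opposite in the 2 sets of spots. With 12 and 19 UMIs the Nf1 level in the mutant spots was poorly determined.

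The spots had more neighbours of their own kind in the control callus than in the Nf1 Postn callus. Taking adjacent spots of the grid as neighbours, 25.4% of the eligible neighbours of a Gpnmb/Ccl7 spot in the same callus were themselves Gpnmb/Ccl7 spots, where 5.33% of all eligible spots were. The share was 17.2% (38 of 221 neighbours) and 39.2% (334 of 853) in the control, or 6.29 and 4.04 times the share of such spots in that callus and section. It was 6.14% (14 of 228) and 8.20% (26 of 317) in the Nf1 Postn callus, or 1.58 and 1.87 times. Joined through their neighbours, the 300 spots formed 169 patches, of which 134 were single spots. Single were 22 of 41 and 38 of 153 spots in the control and 31 of 43 and 43 of 63 in the Nf1 Postn callus. The largest patch had 49 spots within 0.75 by 1.13 mm of the control callus in section 2, and the largest in section 1 of the control had 10. No patch of the Nf1 Postn callus had more than 4 spots. In that callus, spots within 5 grid steps of a control spot were Gpnmb/Ccl7 spots in 7.19% (10 of 139) and 8.75% (14 of 160) of cases, against 3.42% (33 of 964) and 3.83% (49 of 1280) farther away. Of the Nf1 Postn spots with 3 or more UMIs, 4 of 5 in section 1 and 2 of 9 in section 2 lay within those 5 steps, next to the other animal's tissue. Each callus was placed differently in the block to tell them apart, but how spots along the border were assigned is not given in the sources used here, and its part in the Nf1 Postn values was not tested.

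The label of macrophage-rich spots was checked against genes that did not choose them. For each gene or list, the UMIs seen in the Gpnmb/Ccl7 spots were divided by the UMIs expected at the rates of the other spots of the same section and callus. The 20 general macrophage genes, all on the probe panel, summed to 6872 UMIs, or 2.15 times the expected number. The 12 genes of lipid-associated macrophages, the Trem2 and Spp1 class, summed to 2.39 times and 18 measured genes of the lysosome to 1.99 times. The label held for the spots with several UMIs and not for those with 1. Pan-macrophage UMIs were 2.52 times the expected number (interval 2.46 to 2.59) in the 131 spots with 3 or more UMIs of Gpnmb and Ccl7, 1.37 times (1.26 to 1.49) in the 58 with 2, and 0.956 times (0.866 to 1.05) in the 111 with 1. Against other spots of like depth, under 3000 UMIs, the spots with 1 UMI stood at 1.05 times (0.954 to 1.16), and the 119 spots with 3 or more that had at least 5000 UMIs, against other spots of that depth, at 2.51 times (2.44 to 2.57). The whole set is therefore named here by its rule.

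**Figure D2:**
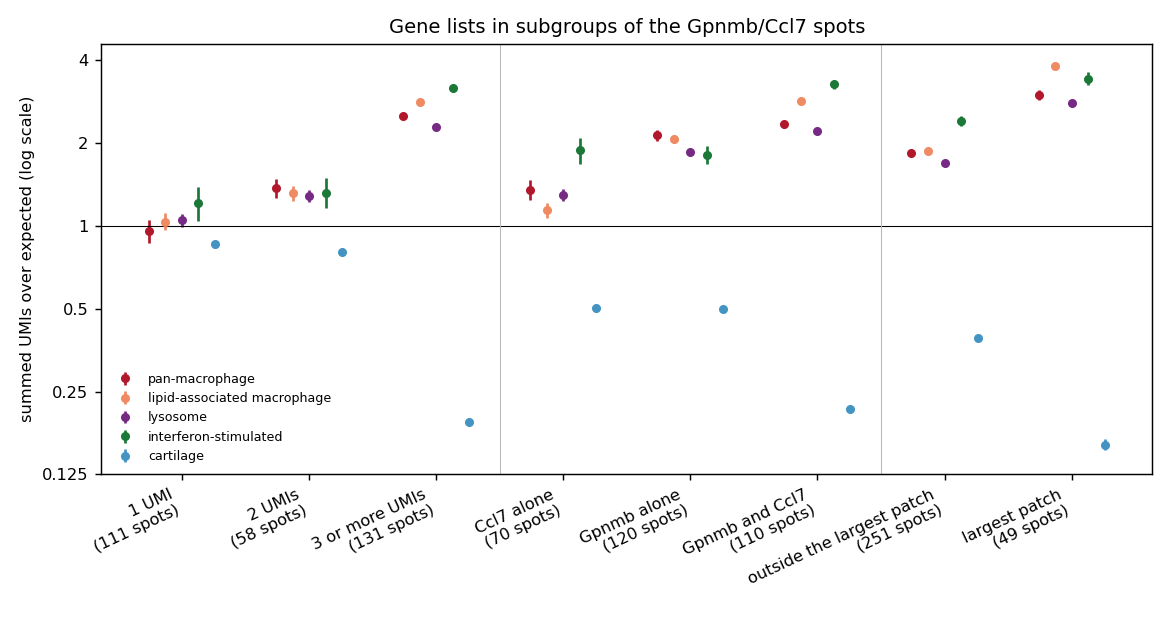
Summed UMIs of 5 gene lists over the number expected from other spots (log scale, bars are 95% counting intervals), in Gpnmb/Ccl7 spots grouped by UMIs, by which gene was found, and by patch. The macrophage lists stand near 1 in the 111 spots with 1 UMI and above 2 in the 131 spots with 3 or more, where the cartilage list stands at 0.194.

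Which of the 2 genes was found went with the level of the pan-macrophage and lipid-associated genes. Spots with Gpnmb alone had 2.13 times the expected pan-macrophage UMIs (2.04 to 2.23) and 2.07 times the lipid-associated ones. Spots with Ccl7 alone had 1.35 (1.25 to 1.47) and 1.14 times. Spots with both had 2.35 and 2.84 times. Trem2 followed the same order, at 0.852 times (interval 0.408 to 1.57, 10 UMIs) with Ccl7 alone, 3.19 times with Gpnmb alone and 4.06 times with both. Interferon-stimulated genes did not, as spots with Ccl7 alone and Gpnmb alone had 1.88 (1.69 to 2.10) and 1.82 times (1.68 to 1.96) the expected UMIs, intervals that overlap. Resident macrophage genes ran the other way, at 1.30 times (1.16 to 1.46) with Ccl7 alone, 1.05 (0.956 to 1.14) with Gpnmb alone and 0.824 (0.768 to 0.884) with both. Antigen presentation genes did so too, at 1.62, 1.37 and 1.10 times. Median depth was 2533 UMIs with Ccl7 alone, 2682 with Gpnmb alone and 7647 with both, so depth differed little between the first 2. The number of UMIs was not matched. All 111 spots with 1 UMI had Gpnmb alone or Ccl7 alone, so the gene found and the number of UMIs cannot be told apart here. A spot with 24 Gpnmb UMIs, described below, is among those with Gpnmb alone and held 9 of their 80 Trem2 UMIs.

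Per spot the overlap with the rest of the callus was wide. Of the 300 spots, 230 (76.7%) had a pan-macrophage level above the median of other spots, including 47 of 49 in the largest patch and 183 of the 251 outside it. Pan-macrophage CPM had a median of 2647 in the chosen spots and 1563 in other spots, and in the chosen spots ran from 0 to 17454. For the lipid-associated list 225 spots (75%) lay above the other-spot median, including all 49 of the patch. Of the 300 other spots richest in Mmp3 and Il1rn, a set compared below, 207 (69%) lay above the pan-macrophage median. For the lipid-associated list it was 209 of them (69.7%). The cartilage list had a median of 5967 CPM in the chosen spots and 5672 in other spots, and 154 of the 300 (51.3%) lay above the other-spot median, 11 of 49 in the patch and 143 of 251 (57.0%) outside it.

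Of 2878 genes with enough UMIs in both sections, 21 (0.73%) were at least 2-fold higher and 23 (0.799%) at least 2-fold lower in Gpnmb/Ccl7 spots than expected in each section. Gpnmb, Ccl7 and the 3 osteoclast genes of the rule were left out of these counts. The median gene was 0.11 higher on the log2 scale, and 1925 of the 2878 lay above 0. The 10 highest were Ctss, Adam8, Trem2, Plac8, Kif26b, Lrrc15, Itgb2, Mpeg1, Syngr1 and Pirb, from 4.01-fold down to 2.58-fold. Ctss (cathepsin S, chr3:95434097-95463715) was at 1122 and 1547 CPM in control Gpnmb/Ccl7 spots of sections 1 and 2, where other spots had 244 and 358. In the Nf1 Postn callus it was at 547 and 538 CPM where other spots had 301 and 229. All 4 comparisons went the same way, and the control ratios were the larger, with a pooled log2 ratio of 2.00 (interval 1.94 to 2.07).

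Trem2 (chr17:48653429-48661176) was at 143 and 217 CPM in control Gpnmb/Ccl7 spots against 46.9 and 58.5 in other spots, and at 104 and 93.8 against 64.6 and 33.0 CPM in the Nf1 Postn callus. Adam8, a membrane metalloprotease of leukocytes and osteoclasts (chr7:139558845-139572476), was at 130 and 142 CPM against 35.5 and 37.3 in the control, and at 78.1 and 74.0 against 42.4 and 25.7 in the mutant. Plac8, listed as a monocyte gene (chr5:100701591-100720112), was at 117 and 187 against 42.6 and 52.1 CPM, and at 148 and 59.2 against 53.2 and 39.8. For these 3 genes each callus and section had the higher level in the Gpnmb/Ccl7 spots. In Nf1 Postn section 2, Trem2 and Adam8 owed 9 of 19 and 8 of 15 UMIs to 1 spot, without which they stood at 52.5 and 36.8 CPM. Itgb2, the beta chain of the leukocyte integrins (log2 ratio 1.47), Mpeg1, the pore-forming perforin-2 of macrophages (1.44), and Pirb, an inhibitory receptor of myeloid cells (1.37), followed. Not every gene among the 10 is a leukocyte gene. Lrrc15 is known as a membrane protein of activated fibroblasts. It stood at 169 and 221 CPM in control Gpnmb/Ccl7 spots against 64.3 and 67.2 in other spots, and at 156 and 44.4 against 64.9 and 36.3 CPM in the mutant. Kif26b, a kinesin family member of mesenchymal cells, was at 160 and 133 against 38.0 and 41.3 CPM in the control and at 69.4 and 64.2 against 45.3 and 24.8 in the mutant. Syngr1, a vesicle membrane protein, had log2 ratios of 2.01 and 1.65 in the control and 0.09 and -0.32 in the Nf1 Postn callus. The other 11 higher genes were Ctsl, Cd52, Apoe, Sod3, Gm8909, Cd37, Cxcl16, Xaf1, Amdhd2, Laptm5 and Syk.

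The spots outside the largest patch gave 13 higher and 15 lower genes, all of them among the 21 and 23, and Ctss, Adam8, Trem2, Plac8, Kif26b, Lrrc15, Itgb2, Mpeg1, Syngr1 and Pirb were all still past 2-fold. When spots were chosen by Ccl7 alone, 8 genes were higher, of which 3 were among the 21. When every spot was thinned to 1000 UMIs before ranking, 1 of the 21 remained, Ctss, and 3 of the 23.

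The promoters of both genes that chose the spots, of Ctss, and of the only pair among these 12 genes with a motif match are given here to place the members in the genome. Each is the 250 bases before the start of the gene's canonical transcript in build GRCm39, read 5′ to 3′ on the gene's strand, with motif matches in capitals.
Gpnmb promoter, chr6:49013176-49013425, plus strand: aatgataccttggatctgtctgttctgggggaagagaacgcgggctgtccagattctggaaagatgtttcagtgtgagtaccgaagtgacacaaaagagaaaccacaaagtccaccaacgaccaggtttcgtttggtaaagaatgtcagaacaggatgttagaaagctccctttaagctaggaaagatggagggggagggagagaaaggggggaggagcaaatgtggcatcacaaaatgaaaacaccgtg
Ccl7 promoter, chr11:81936282-81936531, plus strand: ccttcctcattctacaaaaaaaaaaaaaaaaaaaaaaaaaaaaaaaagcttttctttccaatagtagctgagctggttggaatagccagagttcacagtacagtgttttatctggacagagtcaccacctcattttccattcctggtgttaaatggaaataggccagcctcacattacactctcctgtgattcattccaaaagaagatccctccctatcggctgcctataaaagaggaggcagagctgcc
Ctss promoter, chr3:95433839-95434088, plus strand: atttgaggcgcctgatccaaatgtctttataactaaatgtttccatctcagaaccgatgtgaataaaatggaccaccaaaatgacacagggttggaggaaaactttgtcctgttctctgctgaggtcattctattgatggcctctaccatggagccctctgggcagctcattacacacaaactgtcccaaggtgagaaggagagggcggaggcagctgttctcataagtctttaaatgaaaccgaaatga
Itgb2 promoter, chr10:77365836-77366085, plus strand: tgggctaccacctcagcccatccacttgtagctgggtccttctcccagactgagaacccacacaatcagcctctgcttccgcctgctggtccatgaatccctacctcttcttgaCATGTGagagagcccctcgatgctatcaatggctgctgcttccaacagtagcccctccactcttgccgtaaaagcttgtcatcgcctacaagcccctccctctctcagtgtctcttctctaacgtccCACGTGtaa
Pirb promoter, chr7:3723417-3723666, minus strand: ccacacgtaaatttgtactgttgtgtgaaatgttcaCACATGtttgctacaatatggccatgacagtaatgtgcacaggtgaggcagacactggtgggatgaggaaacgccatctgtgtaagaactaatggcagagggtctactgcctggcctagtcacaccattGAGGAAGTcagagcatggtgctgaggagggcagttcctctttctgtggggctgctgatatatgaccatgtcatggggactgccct
The motifs were CACGTG and CATGTG, E-box forms read by lysosomal and macrophage regulators of the MiT family, and GAGGAAGT, a form read by PU.1, searched on both strands, where CACGTG is its own reverse and CATGTG reads CACATG. They occurred in 6.79%, 9.33% and 2.08% of the windows of 17789 genes. Itgb2 held CACGTG from base -9 and CATGTG from base -136, and Pirb held CATGTG from -214 and GAGGAAGT from -85, counted back from the start. In the other windows, those of Gpnmb, Ccl7 and Ctss among them, these letters were not found.

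Genes of general macrophages were higher together, and few passed the fold in both sections. Of the 20, 11 had enough UMIs, all 11 lay above 0 with a median log2 ratio of 1.06 (0.79 and 1.04 in sections 1 and 2), and Ctss, Laptm5 and Mpeg1 passed. Cd68 (393 UMIs) was 0.80 and 1.24 higher on the log2 scale in the 2 sections. The complement genes C1qa, C1qb and C1qc, most abundant after Ctss, had log2 ratios of 0.54, 0.84 and 0.65, and Csf1r, the receptor for the macrophage growth factor, 0.64. Adgre1, Lyz2 and Cx3cr1, often used to define macrophages, gave only 20, 8 and 24 UMIs in all 300 spots and could not be read. Summed pan-macrophage CPM was 4012 and 4772 in control spots of sections 1 and 2 against 1740 and 2123 in other spots. In the Nf1 Postn callus it was 2708 and 2709 against 2031 and 1464. There it was 2502 and 1983 CPM in the Mmp3 and Il1rn spots and 2505 and 3028 CPM in the osteoclast-rich spots, sets compared below. In the control both of these sets were below the Gpnmb/Ccl7 spots in each section.

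Of the lipid-associated genes, 11 of 12 were tested for the fold and Trem2 and Apoe passed, with a median log2 ratio of 1.27 that came to 0.40 in section 1 and 1.27 in section 2. Spp1, the most abundant, had 5497 UMIs and log2 ratios of 0.40 and 1.65 in the 2 sections. Lgals3, galectin-3, had 0.86 and 1.73, Fabp5, a fatty acid carrier, 0.90 and 1.39, and Plin2, a lipid droplet coat protein, 0.88 and 1.43. Apoe, which carries lipid out of the cell, was 1.31 and 1.27 higher, nearly the same in both. Lpl, Cd9, Cd36 and Cd63 lay between 0.13 and 0.33. Spp1, Lgals3, Fabp5 and Plin2 were thus higher in section 2 than in section 1, and Apoe was not. Mmp12, macrophage elastase, had too few UMIs for the count of genes, and 51 of its 93 came from 1 spot.

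Lysosome genes stood a little higher as a broad group. All 14 tested lay above 0, with a median log2 ratio of 0.71, and Ctsl passed the fold. The most abundant were Psap, the saposin precursor (1.15), Ctsb, cathepsin B (1.23), and Ctsl, cathepsin L (1.36). Lamp1 and Lamp2, membrane proteins of all lysosomes, stood at 0.28 and 0.41. An interferon-stimulated list was added after values had been seen. Of its 18 measured genes only Oasl2, Bst2 and Xaf1 had enough UMIs, with log2 ratios of 1.37, 1.44 and 1.10, and Xaf1 passed. Its summed level was 2.70 times the expected number. Irf7, the factor that drives interferon genes, had 319 UMIs and a log2 ratio of 1.79, and Ifit1 had 161 UMIs and 2.28, both too low in section 1 to be counted.

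Among chemokines, the ligands of Ccr2 other than Ccl7 could not be read, as Ccl2 gave 4 UMIs and Ccl12 gave 20. Of the CC chemokine list 2 of 11 were tested, Ccl8 at 0.10 and Ccl9 at 0.59. Of the CXC list 3 of 8 were, and Cxcl16, a membrane-bound chemokine and lipoprotein receptor, passed at 1.12. Cxcl10 had 85 UMIs and a log2 ratio of 2.36. The chemokine receptors were all too low to be counted and summed to 2.02 times the expected number, with Ccr2 at 93 UMIs and 0.88. The monocyte list had 3 of 7 measured genes tested and a median of 0.65, with Plac8 past the fold. Chil3, another monocyte gene, gave 0 UMIs. Genes of resident tissue macrophages stood apart from these lists. Their 4 tested genes had a median log2 ratio of -0.03, and Mrc1, the mannose receptor, was at -0.20, F13a1 at -0.33 and Stab1 at 0.07. Their summed CPM was 1291 and 934 in control Gpnmb/Ccl7 spots against 1090 and 1096 in other spots, and 833 and 1026 against 959.9 and 715 in the mutant, with no common direction.

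Lists of other functions gave smaller medians. Antigen presentation had 4 genes tested and a median of 0.31, with Cd74, the class II invariant chain, at 0.34. Efferocytosis and cholesterol efflux had 8 tested and a median of 0.34, iron and heme handling 4 and 0.17, complement 3 and -0.24, matrix proteases and inhibitors 6 and 0.10, and inflammatory mediators 1 gene, Tgfb1, at -0.03. In the iron list Slc11a1, the metal transporter of the phagosome, had 103 UMIs and a log2 ratio of 1.96, too few in section 1 to be counted. Growth signals for macrophages had no gene with enough UMIs. The ERK feedback list, genes that Ras signalling switches on, had 2 tested and a median of 0.15, and the Ras pathway list 3 and -0.13. Glycolysis and hypoxia had 3 tested and a median of -0.47. No gene of these lists passed the fold.

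The lists of other cell types a spot could hold were read in the same way. In pooled counts, cartilage genes were lower in the control Gpnmb/Ccl7 spots and gave no common direction in the mutant, while per spot the median over both calluses was not lower, as given above. Of 9 tested cartilage genes 6 passed as lower, with a median log2 ratio of -1.42. Col2a1, the main cartilage collagen (chr15:97873483-97902577), was at 12868 and 7750 CPM in control Gpnmb/Ccl7 spots against 43760 and 27562 in other spots, and at 3542 and 4274 against 2360 and 6878 CPM in the Nf1 Postn callus. The 10 lowest genes were Clec3a, Cnmd, Frzb, Hapln1, Col2a1, Matn3, Rab11fip4, Col22a1, Col11a2 and Sgms2, with log2 ratios from -1.98 to -1.49. In the mutant, Clec3a, Hapln1, Col2a1 and Matn3 were all higher in Gpnmb/Ccl7 spots of section 1 and lower in those of section 2. Osteoblast genes had 3 of 6 tested past the fold as lower (Ibsp, Sp7 and Alpl) and a median of -1.29. Their summed log2 ratio was -1.10 and -1.51 in the control and -0.23 and 0.10 in the mutant. Mature muscle had 5 tested, none past the fold, and a median of -0.63, and its summed level was lower in both calluses and both sections.

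Fibroblast genes gave more UMIs in these spots than macrophage genes did, though fewer than expected from other spots. The 14 genes summed to 86210.4 and 82450 CPM in control Gpnmb/Ccl7 spots and 85834 and 74798 CPM in mutant ones, with Col1a2 the most abundant. Other spots had 112468 and 120936 CPM in the control and 82409 and 57780 CPM in the mutant. Over all Gpnmb/Ccl7 spots the list summed to 0.754 times the expected number. Of 13 tested none passed, with a median of 0.11. Postn itself, the gene whose promoter drives the Cre, was at 0.70 and 0.32. Endothelial genes had 5 tested and a median of 0.02. Osteoclast genes other than those of the rule were too low to be counted and summed to 1.40 times the expected number. They stood at 1.25 times (0.926 to 1.64) in spots with 1 UMI of Gpnmb and Ccl7 and 0.854 times (0.595 to 1.19) with 2. With 3 or more it was 1.52 times (1.36 to 1.69), and in the largest patch 1.86 times (1.57 to 2.18). Erythroid genes had 2 tested and a median of 0.56, and neutrophil genes 1, S100a9, at -0.43. Regenerating muscle, adipocyte, T and NK cell, B and plasma cell, mast cell, Schwann cell, melanocyte and cell cycle lists had no gene with enough UMIs. Nkg7 and Jchain, of NK and plasma cells, were at 0. Of the pigment cell genes, Dct gave 17 UMIs, Pmel 5, Mlana 5, Tyrp1 2 and Tyr 1 in all 300 spots. Their sum was 1.64 times the expected number, and in section 2 of the control it was 16 UMIs, a log2 ratio of 2.00 (interval 1.19 to 2.70), with 1, 5 and 8 UMIs in the other 3 and log2 ratios of 0.09, 0.01 and -0.07. The part of these other cells in the results was not tested.

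**Figure D3:**
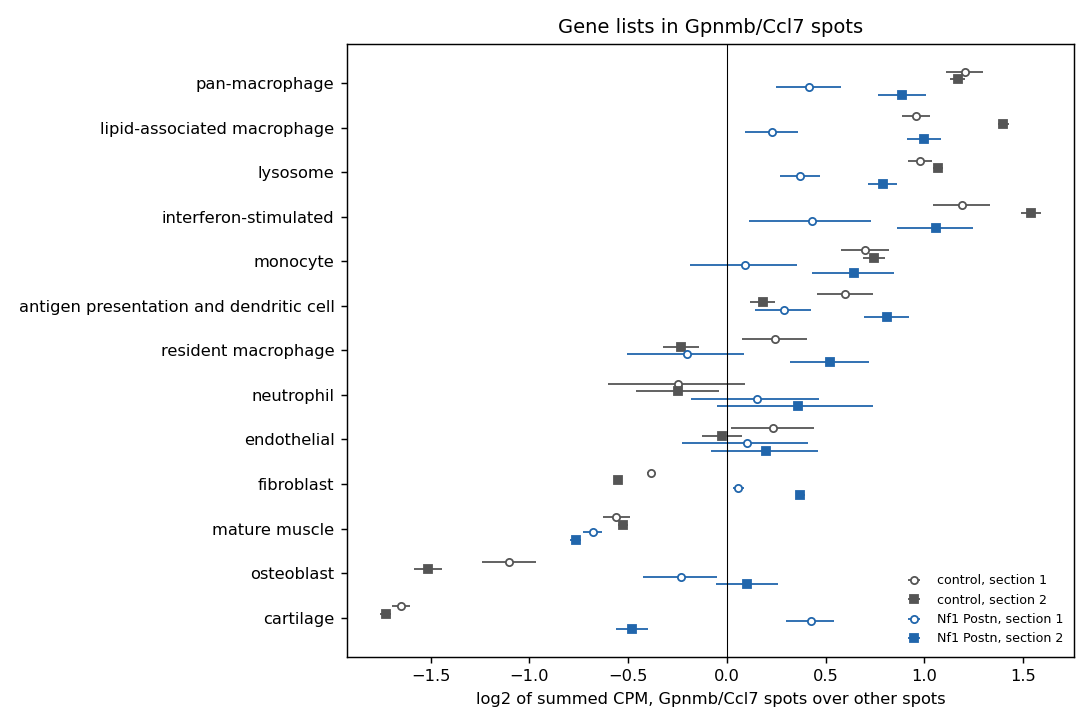
Log2 ratio of the summed CPM of each gene list, Gpnmb/Ccl7 spots over other spots, by callus and section (bars are 95% counting intervals, hidden where shorter than the marker). The pan-macrophage, lipid-associated, lysosome and interferon-stimulated lists lie above 0 in all 4, with section 1 of the Nf1 Postn callus lowest, and cartilage lies at -1.65 and -1.73 in the control and at 0.42 and -0.48 in the Nf1 Postn callus.

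The largest patch had higher values of the pan-macrophage list, Ctss, Trem2 and Spp1 than the spots outside it. Its 49 spots had 3.00 times the expected pan-macrophage UMIs (2.88 to 3.11) and the 251 outside it 1.84 times (1.79 to 1.90). For Ctss this was 6.57 and 3.02 times, for Trem2 6.16 and 2.35 times, and for Spp1 4.86 and 1.95 times. The 251 include the spots with 1 UMI. In the 83 spots outside the patch with 3 or more UMIs, whose median depth of 8396 UMIs was near the 8087 of the patch, the values were 2.25 times for the pan-macrophage list (2.17 to 2.33), 3.98 for Ctss, 3.05 for Trem2 and 2.28 for Spp1. Mmp12 stood at 19.3 times there (15.0 to 24.5) and at 14.7 times (9.44 to 21.9) in the patch. As 51 of the 67 Mmp12 UMIs of those 83 spots came from 1 spot, their value rests mostly on that spot. It cannot be ranked against the patch. Some genes outside the macrophage lists were concentrated there. Crabp1, a carrier of retinoic acid, stood at 11.7 times (9.92 to 13.7) in the patch, 1.83 times outside and 2.22 times outside with 3 or more UMIs. Mmp3, stromelysin, and Il1rn, the interleukin-1 receptor antagonist, together stood at 18.5 times (17 to 20.1) in the patch, 3.80 times outside and 4.78 times outside with 3 or more UMIs. Crabp1 was singled out after its values were seen.

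Levels around the patch were followed outwards in steps of the grid over the control callus of section 2. Pan-macrophage CPM went from 6361 in the patch to 4252 at 1 step, 3836 at 2, 3246 at 3, 3241 at 4 to 5 and 2034 at 6 or more. In CPM, though not as a ratio, the difference was largest between the patch and the first step. Lipid-associated CPM went from 14812 to 7781 at 1 step and 3713 at 6 or more. Mmp3 went down more steeply, from 1118 CPM in the patch to 235 at 1 step, and was at 42.4 CPM at 6 or more steps. The interferon-stimulated list had another profile, as it went from 3444 to 2418 CPM at 1 step, was still at 2256 at 4 to 5 steps and was at 931 at 6 or more. Cartilage CPM ran the other way, from 5300 in the patch through 8053, 15594 and 26798 at 1, 2 and 3 steps to 34477 at 4 to 5 steps. Fibroblast CPM was 71456 in the patch, between 88028 and 97221 at 1 to 5 steps and 122685 at 6 or more. Resident macrophage CPM was 825 in the patch and 1120 at 6 or more steps and followed no order between. The spots at 1 step are by construction not Gpnmb/Ccl7 spots, and those farther out include the Gpnmb/Ccl7 spots outside the patch.

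**Figure D4:**
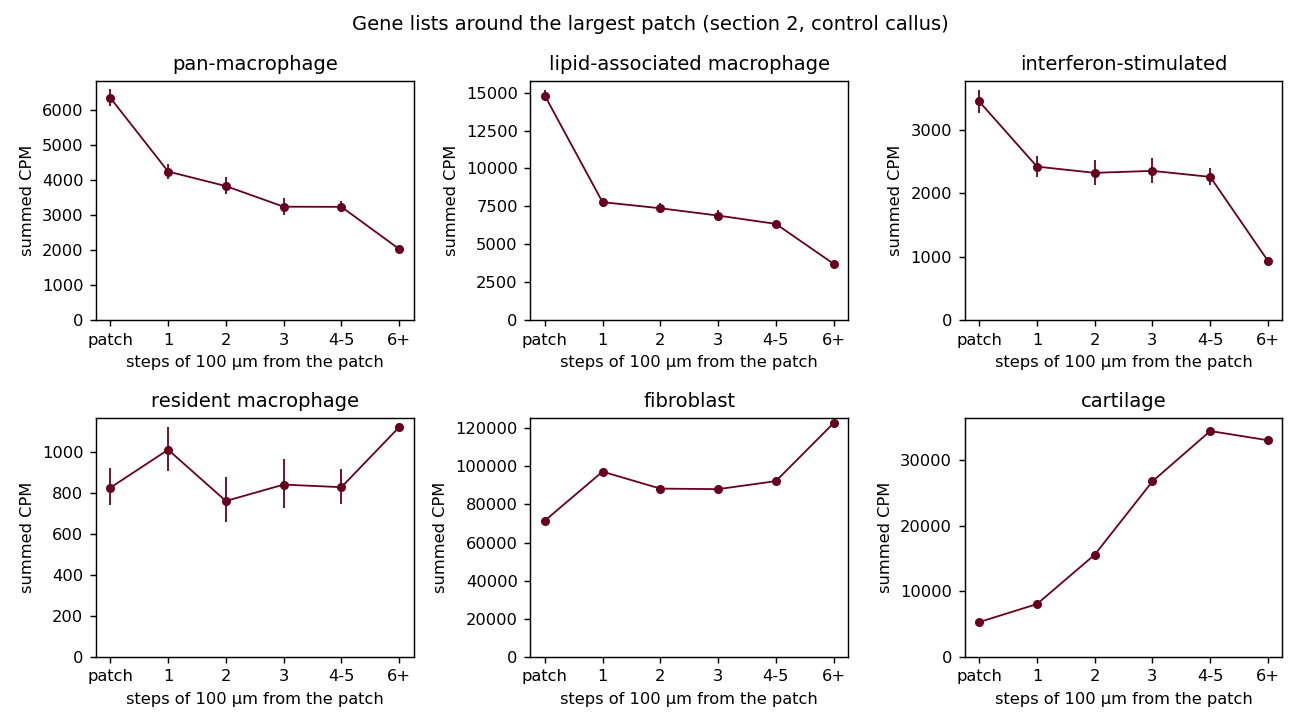
Summed CPM of 6 gene lists against distance from the largest patch, in steps of 100 µm, over the eligible control spots of section 2 (bars are 95% counting intervals). The first 3 lists are highest in the patch and the cartilage list is lowest there, while the resident macrophage list shows no steady course.

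One Nf1 Postn spot of section 2 stood apart by its counts. It held 24 Gpnmb UMIs and no Ccl7 UMI among 12342 UMIs in all, and 51 of the 52 Mmp12 UMIs found in the 63 Nf1 Postn spots of that section. It also held 202 UMIs of Spp1, 75 of Apoe, 45 of Lgals3, 34 of Ctss and 9 of Trem2, and 1 of its 5 eligible neighbours was a Gpnmb/Ccl7 spot. With it the summed log2 ratios in Nf1 Postn spots of section 2 were 0.89 for the pan-macrophage list, 1.00 for the lipid-associated list and 0.79 for the lysosome list. Without it they were 0.58, 0.30 and 0.41.

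Between the calluses, 1261 genes had enough UMIs within the Gpnmb/Ccl7 spots. Of these 40 (3.17%) were at least 2-fold higher and 23 (1.82%) at least 2-fold lower in Nf1 Postn than in control spots in both sections. Between other spots of the 2 calluses, 464 of 11634 genes (3.99%) were higher and 189 (1.62%) lower. The lists hold 7 of the higher genes, 4 of mature muscle, 2 erythroid and Aldoa, a glycolytic enzyme. Of the 40, 36 (90.0%) were past the fold in other spots too, against 6 of the 23 lower genes (26.1%). Hbb-bs, a beta globin (chr7:103475741-103477304), was at 121 and 184 CPM in control Gpnmb/Ccl7 spots and at 1684 and 1382 CPM in Nf1 Postn ones, a log2 ratio of 3.80 and 2.91, where other spots gave 3.30 and 2.41. Hba-a2, an alpha globin, followed at 3.26 and 2.63. Ldb3, Klhl31, Myoz1 and Mybpc2, genes of striated muscle, came next, and Myoz1, a protein of the muscle Z-disc, was at 204 and 321 CPM in control spots and at 1085 and 1520 CPM in Nf1 Postn ones. All 4 tested genes of the mature muscle list were higher, with a median of 2.11 beside 2.29 in other spots. The remaining 4, Cilp, Clec3b, Fxyd1 and H1f1, did not reach the fold in both sections of the other spots, a difference that was not tested. Singled out after its values were seen, Cilp, a matrix protein of cartilage and fibroblasts, was 2.24 and 1.61 higher, where other spots gave 1.55 and 0.30.

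Of the fixed lists, 2 of 7 tested cartilage genes and 0 of 13 fibroblast genes were among the 23 lower in Nf1 Postn spots. Sox9, the factor that sets cartilage identity (chr11:112673050-112678587), was at 429 and 306 CPM in control Gpnmb/Ccl7 spots and 69.4 and 83.9 CPM in Nf1 Postn ones, with log2 ratios of -2.63 and -1.87 beside -2.64 and -2.41 in other spots. C1qtnf3 and Sfrp2, secreted proteins of connective tissue cells, were at -1.80 and -1.89 and at -1.51 and -1.63, where other spots gave -2.59 and -2.44 and -1.87 and -2.93. Slpi, an inhibitor of leukocyte proteases, was at -2.03 and -1.23, beside -1.25 and -1.30 in other spots. Fxyd5 and Sod3 were lower by less in other spots, as were some genes named below. Sod3, the extracellular superoxide dismutase, was at 732 and 736 CPM in control spots and 278 and 188 CPM in Nf1 Postn ones, log2 ratios of -1.40 and -1.97, while other spots gave -0.59 and -0.95. Fxyd5, a sodium pump subunit, was at -1.72 and -1.73 where other spots gave -0.68 and -1.11.

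Of the macrophage lists, Ctss, Spp1 and Lgals3 were among the 23. Ctss had log2 ratios of -1.04 and -1.52, where other spots gave 0.30 and -0.64, so outside the chosen spots its direction turned with the section. Spp1 was at -1.35 and -1.45 beside -0.81 and -1.16, and Lgals3 at -1.10 and -1.38 beside -0.84 and -0.87. In section 2, 1 Nf1 Postn spot held 202 of 319 Spp1 UMIs, 45 of 90 Lgals3 UMIs and 34 of 109 Ctss UMIs, and without it the log2 ratios were -2.81, -2.29 and -1.97. Thbs1, thrombospondin-1, the 1 tested gene of the monocyte list, was at -1.65 and -1.42 beside -0.80 and -1.33, and Mmp13, collagenase-3, 1 of 5 tested matrix proteases and inhibitors, at -1.21 and -1.44 beside -0.47 and -1.62. Xaf1, of the interferon-stimulated list, was at -1.13 and -1.41 beside -0.10 and -0.51. Outside the lists, 2 genes were singled out after their values were seen, Il4ra, the interleukin-4 receptor, at -1.56 and -1.54 beside -0.25 and -0.71, and Gsdmd, the pore-forming gasdermin D, at -1.03 and -1.41 beside 0.47 and -0.36. Over the lists, 9 general macrophage genes had a median of -0.70, beside -0.17 in other spots, with 1 past the fold, and 6 lipid-associated genes -0.93 beside -0.75 with 2 past it. The 11 lysosome genes had a median of -0.48 beside -0.26 with none past it, and 3 resident macrophage genes -0.09 beside -0.07. The 4 genes of antigen presentation and dendritic cells ran the other way, at 0.65 beside 0.53, with none past the fold. The number of UMIs that chose a spot also differed, since 69 of 106 Nf1 Postn spots and 42 of 194 control spots had 1 UMI, and so did depth, as given above. Among spots with 3 or more UMIs, of which the Nf1 Postn callus had 5 and 9, 14 of the 23 still had enough UMIs and 9 were past the fold, with Thbs1, Il4ra, Sod3, Fxyd5 and Sox9 among them and Ctss, Spp1 and Lgals3 not. When spots were thinned to 1000 UMIs before they were ranked, all 23 had enough UMIs and 6 were past the fold, namely C1qtnf3, Erg, Matn3, Sfrp2, Slpi and Sox9. Outside the largest patch 19 of the 23 were, and Ctss, Spp1, Lgals3 and Arf6 were not.

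**Figure D5:**
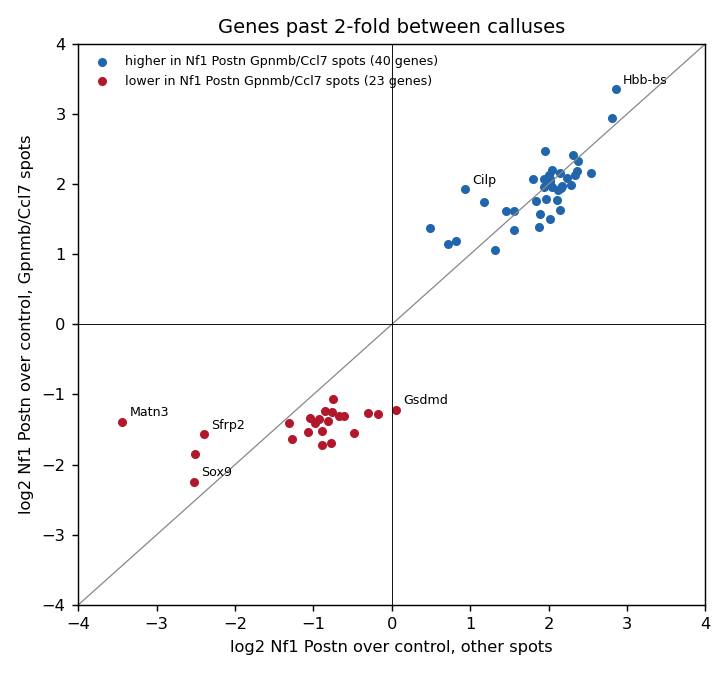
Mean over sections of the log2 ratio of Nf1 Postn over control in Gpnmb/Ccl7 spots (vertical) against the same ratio in other spots (horizontal), for the 63 genes past 2-fold in both sections, with the line of equal ratios. Hbb-bs is the highest gene on both axes, Cilp lies above the line at 2.24 and 1.61 in the 2 sections against 1.55 and 0.30 in other spots, and Gsdmd lies near 0 in other spots.

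The most similar set compared was the 300 other eligible spots with the highest summed CPM of Mmp3 and Il1rn, 21 and 106 in the control and 76 and 97 in the Nf1 Postn callus of sections 1 and 2. Had both sets been drawn from all eligible spots, 76 spots (25.3% of each list) would have been in both, and 28 of these lay in the largest patch, 57.1% of it. Each such list holds 5.33% of eligible spots. As the sets were kept apart, these 76 count as Gpnmb/Ccl7 spots only. In control section 2 the Gpnmb/Ccl7 spots even had more Mmp3 (504 against 385 CPM) and Il1rn (242 against 187 CPM) than the Mmp3 and Il1rn spots. In each other group of callus and section they had less of both. Both calluses were pooled within a section here, so the sets differed in callus mix. Against these spots 3 of 2749 genes (0.109%) were past 2-fold higher in both sections and 1 (0.0364%) lower. Ctss was at 931 CPM in Gpnmb/Ccl7 spots of section 1 against 350.2 in the Mmp3 and Il1rn spots, and at 1386 against 519 in section 2. Kif26b was 1.54 and 1.28 higher on the log2 scale and Syngr1 1.20 and 1.07. Camp, an antimicrobial peptide of neutrophils, was lower, at -2.79 and -1.02. When rates were compared within each callus and weighted to the callus mix of the Mmp3 and Il1rn spots, Ctss stood at 1.03 and 1.16 and Kif26b at 1.11 and 1.08, while Syngr1 at 0.75 and 0.83 and Camp at -1.92 and -0.48 did not pass. Weighted to the mix of the Gpnmb/Ccl7 spots, Ctss, Kif26b and Syngr1 passed and Camp, at -3.58 and -0.88, did not, while Trem2 (1.08 and 1.07) and Amdhd2 (1.08 and 1.09) passed there and not in the pooled comparison. Within the Nf1 Postn callus Syngr1 was at 60.8 and 44.4 CPM in Gpnmb/Ccl7 spots and 58.5 and 43.9 in the Mmp3 and Il1rn spots. Clec3a and, of the cartilage list, Col2a1 and Hapln1 were past the fold as lower under both weightings and not in the pooled comparison. Under the Gpnmb/Ccl7 mix alone, S100a8 (-2.61 and -1.02) and Col10a1 (-1.13 and -1.22) were also past it as lower. S100a9, of the neutrophil list, was past it as lower under the Mmp3 and Il1rn mix alone (-1.96 and -1.05). Of the macrophage list 11 genes were tested, with a pooled median of 0.55 and 1 past the fold, and of the lipid-associated list 9, with a pooled median of 0.86 and none past it before weighting.

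The osteoclast-rich spots that the rule removed share a blood precursor with macrophages. They numbered 155 and 115 in the control and 23 and 3 in the Nf1 Postn callus, so that this comparison is mostly with control spots. Of 6329 genes, 323 (5.1%) were past 2-fold higher in Gpnmb/Ccl7 spots in both sections and 161 (2.54%) lower. Kif26b, Il1rn, Mmp19, Mfap5 and Ctss were the 5 highest. Ctss was at 931 and 1386 CPM against 152 and 210 in the osteoclast-rich spots. Mfap5, a protein of elastic microfibrils, was 2.71 higher in both sections, and Mmp19, a matrix protease, 2.77 and 2.70. The 5 lowest were Siglec15, Dcstamp and Oscar, receptors and a fusion protein of osteoclasts, Dmp1, of osteocytes, and Col22a1. Siglec15 had log2 ratios of -4.36 and -3.19 and Dcstamp -2.81 and -3.79. Of 8 tested osteoclast genes 7 were lower, as were all 7 tested osteoblast genes. The rule chose the osteoclast-rich spots by Acp5, Ctsk and Mmp9 and kept them out of the Gpnmb/Ccl7 set. Lower osteoclast genes therefore follow from that choice, and lower genes of the bone around osteoclasts may do so too. Of 15 general macrophage genes 7 were higher and 1 lower, and of 11 lipid-associated genes 5 were higher. Other lists were higher too, with all 5 tested genes of mature muscle and all 4 of antigen presentation. So were 4 of 5 complement genes, with 1 lower, and 2 of 2 erythroid genes. Callus mix was not matched in these counts.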

How the data were processed

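Formalin-fixed sections were read with 10x Visium probe pairs. Expected counts of UMIs per spot and gene, with a callus label for each spot, were deposited by the authors after alignment to mm39 with Space Ranger 1.3.0 (submitters' processing notes) and export from Partek Flow; they are whole numbers except for 9 genes whose symbol joins several gene IDs, and were not rounded or normalized. The row that names no gene held 6.81e-05% and 3.76e-05% of the UMIs and was dropped. The sections share 2711 barcodes, which are positions of the same grid and not shared cells.

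Counts were pooled over spots of a section and callus and scaled to CPM. Expected UMIs came from the rates of other spots of the same section and callus. A gene was tested for the fold if observed plus expected UMIs (between sets, the UMIs of both) reached 50 in each section, and passed at 2-fold or more the same way in both. Poisson and binomial intervals are exact. Ratios use a floor of 3 UMIs. The largest differences each way were named (10 against other spots, 6 between calluses, 5 against other sets), with genes from the 34 lists; other genes were named after their values were seen. On simulated data with 200 of 2878 genes changed (Gpnmb/Ccl7 against other spots), all had the right sign, 74.8% of genes changed 4-fold passed and 0 unchanged genes did.

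The spots and gene lists were chosen with earlier results of these data known. The interferon list, the motifs, the depth-matched comparison and the values by UMIs, by patch, without 1 spot and matched by callus were added after values had been seen. Python 3.11.15, numpy 2.4.6, pandas 2.3.3 and scipy 1.17.1 were used. Promoter windows came from a GRCm39 genome and its annotation, which gave a window for 17789 of 19430 genes.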

Additional observations from a re-analysis of the deposited data

Results flagged for a closer look

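Lists of 3 cell types or states differed in direction between the calluses in both sections. No such difference was tested, since there was 1 mouse of each genotype. The summed neutrophil list was at log2 ratios of -0.24 and -0.25 in control Gpnmb/Ccl7 spots against other spots, and at 0.15 and 0.36 in Nf1 Postn ones, a mean difference of 0.502. It rested on 70, 186, 80 and 55 UMIs, and 3 of the 4 intervals reached across 0. The fibroblast list was at -0.38 and -0.55 in the control and at 0.06 and 0.37 in the mutant, a mean difference of 0.684, and it rested on 9888 UMIs or more in each. The cell cycle list was at -0.38 and -0.19 in the control, with intervals that reached across 0, and at 0.69 (0.10 to 1.22, 28 UMIs) and 0.65 (0.07 to 1.17, 29 UMIs) in the mutant, a mean difference of 0.949.

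A signal of Gpnmb and Ccl7 was present in spots that the rule left out. In the 460 spots under 1000 UMIs the 2 genes stood at 71.8 CPM (45.0 to 109), from 22 UMIs in 22 spots, where a count of 0 would allow up to 9.79 CPM. All 22 would be past the limit of membership, since 1 UMI is worth over 1000 CPM there. In the 296 osteoclast-rich spots they stood at 28.2 CPM (22.0 to 35.6), from 70 UMIs in 54 spots, where a count of 0 would allow up to 1.21 CPM, and 4 of these spots would be past the limit.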

How the results depend on the processing

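No paired test was run, as no result comes from a test. Ratios were formed within a section, which held both calluses. All 607 values of 51 named genes kept their sign under the alternatives. The limits are 1 mouse of each genotype, 1 UMI in 111 of 300 spots and 49 spots in 1 patch.

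The share of control spots was 6.30% over both sections and 2.73 to 9.68% with 1 section left out, and that of Nf1 Postn spots 4.17% and 3.90 to 4.38%. They were 3.25% and 1.97% with 150 spots chosen, 12.9% and 7.94% with 600, and 3.80% and 0.551% for spots with 3 or more UMIs; the control share was 4.71% outside the largest patch and the Nf1 Postn share 5.12% with a minimum of 2000 UMIs. With 1 section left out a gene needs to pass in 1 section, so counts grow: 30 to 205 higher and 34 to 90 lower against other spots, 57 to 222 and 88 to 543 between calluses, 19 to 133 and 16 to 64 against Mmp3 and Il1rn spots, and 528 to 718 and 232 to 357 against osteoclast-rich spots. A minimum of 10 UMIs, which tests more genes, gave 105 and 45, 178 and 120, 49 and 19, and 710 higher against osteoclast-rich spots.

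Against other spots, choosing by Ccl7 alone gave 8 higher and 13 lower genes, thinning to 1000 UMIs 1 and 4, and spots outside the patch 13 and 15. There were 32 higher with 600 spots (8 of the 21 among them), 7 higher by the mean of log2(CPM + 1) (5 of the 21) and 60 lower for spots with 3 or more UMIs (17 of the 23). Of the 21, 8 were past the fold for spots with 3 or more UMIs and 6 with 150 spots. Between calluses 600 spots gave 76 and 46, with 33 of the 40 and 10 of the 23. Lower genes numbered 36 after thinning (6 of the 23), 11 after centring on the median ratio (all 11 among the 23) and 763 by the mean of log2(CPM + 1) (22 of the 23); the cause was not tested. With 150 spots or spots of 3 or more UMIs a callus had under 20 spots in a section, the minimum for counting; of the 40 genes, 27 and 15 were still tested and 25 and 12 past the fold, and of the 23, 11 and 14 were tested and 8 and 9 past it. Against Mmp3 and Il1rn spots, spots with 3 or more UMIs gave 14 and 61, those outside the patch 1 and 0, and centring 2 lower. Matched by callus, there were 5 higher and 5 lower with the callus mix of the Gpnmb/Ccl7 spots (3 of the 3 and 0 of the 1 among them), and 2 and 4 with that of the Mmp3 and Il1rn spots (2 of the 3 and 0 of the 1); against osteoclast-rich spots, with their mix, 293 and 156 (246 of the 323 and 143 of the 161).

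Of the neighbours 25.4% were Gpnmb/Ccl7 spots, or 11.6 to 30.8% with 1 section left out. The share was 22.6% by Gpnmb alone, 15.7% by Ccl7 alone, 29.3% with 600 spots, 28.1% from 2000 UMIs, 13.9% after thinning, 42.0% for 3 or more UMIs and 16.5% outside the patch. Medians with 1 section left out were 0.79 to 1.11 (pan-macrophage), 0.40 to 1.33 (lipid-associated) and 0.60 to 0.69 (lysosome). By Ccl7 alone they were 0.57, 0.57 and 0.45, after thinning 0.64, 0.63 and 0.43. The pan-macrophage and lysosome medians were 0.88 and 0.58 by the mean of log2(CPM + 1), 1.29 and 0.95 for 3 or more UMIs, and 0.85 and 0.55 outside the patch. The lysosome median was 0.93 with 150 spots, 0.50 with 600, 0.81 from plain pooled CPM and 0.62 after centring.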
